A study of Mus musculus with 20 samples.

Results

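The genes described here are 31 genes of autophagy and the lysosome, chosen by name: the kinases and lipid-binding proteins that start an autophagosome, the conjugation enzymes and ATG8 proteins that build its membrane, its cargo receptors, and the lysosome with its regulator Tfeb. A gene was measured where a probe set carried its symbol alone. That held for 29 of the 31, with 64 of the 45037 probe sets that were not controls, among 17097 genes in all. Map1lc3b and Sqstm1 had no such probe set and are given no value. For 18 of the 29 genes there was more than 1 probe set, and the gene's value is that of the one with the highest mean over all arrays. Liver RNA of 20 mice, each on its own Affymetrix array, was compared in 4 groups of 5 animals at 11 weeks of age. Restricted progeroid and control-fed progeroid mice were Ercc1Δ/-, carrying a Δ allele and a - allele of the DNA repair gene Ercc1 in every cell. Restricted wild-type and control-fed wild-type mice were littermates, and all 4 groups shared the F1 C57BL6J/FVB hybrid background and the AIN93G synthetic food. Restriction began at 7 weeks of age at 10% and reached 30% at 9 weeks, with food handed out just before the dark period. Restriction at 30% gave wild-type mice 2.1 g per day, and control-fed mice ate freely, 3.0 g per day on average in wild type. The sex of the animals is not given in the sources used here.

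Autophagy encloses cytoplasm in a double membrane, the autophagosome, and delivers it to the lysosome, whose acid hydrolases break it down. The ULK kinases start the process, the Beclin 1 lipid kinase complex marks the membrane with a phosphoinositide, and 2 ubiquitin-like conjugation pathways attach ATG8 proteins to it. In the liver, autophagy is known as a supplier of amino acids, fatty acids and glucose precursors in fasting, and it is regulated in large part on proteins, by phosphorylation and by the use of ATG8 proteins. Transcript levels therefore describe the machinery's mRNA and not the flow of material through it. The transcription factor TFEB is known to bind the sequence GTCACGTG, which contains the E-box CACGTG, near the start of many lysosomal genes.

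Upstream sequences are shown for the 6 members that passed the test in both genotype comparisons or both diet comparisons described below, and for Lamp1, whose window held the most CACGTG matches. They are the 250 bases before a RefSeq start of each gene on GRCm38.p6, which is the C57BL/6J reference and not the hybrid genome of these mice. Whether it is the start used in liver was not examined. Uvrag lies at chr7:99141145-99141394 on the minus strand, and Atg7 at chr6:114670846-114671095 on the plus strand. Atg10 lies at chr13:91223988-91224237 on the minus strand, and Hexa at chr9:59539290-59539539 on the plus strand. Ulk2 lies at chr11:61855093-61855342 on the minus strand, and Bnip3 at chr7:138909507-138909756, also on the minus strand. Lamp1 lies at chr8:13158911-13159160 on the plus strand. Each runs 5′ to 3′ toward the gene, and capitals mark CACGTG, extended to GTCACGTG or CACGTGAC where that longer motif was matched.
Uvrag: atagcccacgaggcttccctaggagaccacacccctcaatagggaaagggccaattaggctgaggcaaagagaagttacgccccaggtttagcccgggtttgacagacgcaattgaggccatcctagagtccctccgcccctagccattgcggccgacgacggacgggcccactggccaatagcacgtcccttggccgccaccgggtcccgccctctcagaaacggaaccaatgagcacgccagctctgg
Atg7: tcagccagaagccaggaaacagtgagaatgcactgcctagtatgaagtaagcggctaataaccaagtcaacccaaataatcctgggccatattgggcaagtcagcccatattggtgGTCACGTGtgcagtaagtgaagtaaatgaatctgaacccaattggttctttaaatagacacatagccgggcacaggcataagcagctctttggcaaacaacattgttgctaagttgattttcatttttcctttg
Atg10: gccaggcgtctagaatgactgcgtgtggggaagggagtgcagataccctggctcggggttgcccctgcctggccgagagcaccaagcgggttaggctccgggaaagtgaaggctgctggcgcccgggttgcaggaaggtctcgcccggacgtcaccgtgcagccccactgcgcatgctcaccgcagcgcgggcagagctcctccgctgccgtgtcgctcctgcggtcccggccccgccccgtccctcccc
Hexa: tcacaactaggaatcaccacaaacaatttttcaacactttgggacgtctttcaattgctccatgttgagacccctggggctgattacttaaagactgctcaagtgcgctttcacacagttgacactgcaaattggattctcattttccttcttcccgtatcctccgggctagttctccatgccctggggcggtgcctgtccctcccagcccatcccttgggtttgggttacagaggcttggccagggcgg
Ulk2: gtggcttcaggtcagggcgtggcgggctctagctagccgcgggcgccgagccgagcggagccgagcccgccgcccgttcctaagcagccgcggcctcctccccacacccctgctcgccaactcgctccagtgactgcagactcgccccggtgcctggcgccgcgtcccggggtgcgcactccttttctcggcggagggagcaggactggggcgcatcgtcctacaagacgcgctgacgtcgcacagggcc
Bnip3: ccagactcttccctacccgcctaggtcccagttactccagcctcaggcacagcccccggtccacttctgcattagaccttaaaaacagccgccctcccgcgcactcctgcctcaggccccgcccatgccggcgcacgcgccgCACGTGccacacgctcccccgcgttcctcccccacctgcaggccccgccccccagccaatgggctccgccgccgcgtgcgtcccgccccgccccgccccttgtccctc
Lamp1: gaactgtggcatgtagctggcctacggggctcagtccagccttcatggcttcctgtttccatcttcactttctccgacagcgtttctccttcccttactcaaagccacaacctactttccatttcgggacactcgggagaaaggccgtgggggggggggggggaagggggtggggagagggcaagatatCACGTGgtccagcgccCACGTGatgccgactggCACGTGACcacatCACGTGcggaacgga

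Uvrag, Atg10, Hexa and Ulk2 held no CACGTG in this window. Atg7 held 1 match, within the longer motif and starting at position -132 from that RefSeq start, Bnip3 held 1 match starting at -108, and Lamp1 held 4. Both strands were searched for CACGTG, which is its own reverse complement, for GTCACGTG, which contains it, and for TGTTTAC, a FOXO-type motif. A window was found in the RefSeq table for 24 of the 31 members, with 27 windows in all. Ctsa and Tfeb had more than 1, and a gene counted where any of its windows matched. Ctsa had a window with CACGTG and a window without. CACGTG was in a window of 9 of the 24, namely Atg3, Atg5, Atg7, Bnip3, Ctsa, Ctsd, Ctsl, Lamp1 and Mcoln1, against 6.86% of all 27025 genes with a window. GTCACGTG was found upstream of Atg3, Atg7, Ctsa, Ctsd, Lamp1 and Mcoln1, against 2.11% of all genes. TGTTTAC was found in none of the 24, against 3.54% of all genes. These are matches of letters and not measured sites. The calls of the test described below were counted for the 9 members with CACGTG and for the 13 measured members whose window lacked it. By genotype on the control diet, 1 was higher and 1 lower of the 9, and 1 was higher and 3 lower of the 13. By genotype on the restricted diet, 0 were higher and 2 lower of the 9, and 2 were higher and 3 lower of the 13. With restriction in progeroid livers, 1 was higher and 0 lower of the 9, and 1 was higher and 1 lower of the 13. With restriction in wild type, 4 were higher and 2 lower of the 9, and 0 were higher and 3 lower of the 13. No test of these splits was made, and the shares of all genes called in each comparison are given below.

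All values are the deposited RMA levels, on a log2 scale, and differences between them are log2 fold changes with the standard error (SE) of the limma fit. A gene passed where its p-value, adjusted over all 17097 genes of a comparison by the Benjamini-Hochberg method, was under 0.05. RMA compresses differences of dim probe sets, so folds are likely to be understated there, and levels of different genes on this scale cannot be set against each other. The array medians lay between 4.17 and 4.21, and pairs of arrays correlated at 0.979 to 0.996. Ercc1 itself averaged 5.30 ± 0.15 in control-fed progeroid livers and 6.54 ± 0.073 in control-fed wild-type livers (SD, n = 5 each). It averaged 4.80 ± 0.24 in restricted progeroid livers and 6.15 ± 0.12 in restricted wild-type livers (SD, n = 5 each), so the genotype labels were borne out on both diets. The hepatocyte markers had list means of 13.48 to 13.55 in restricted progeroid, 13.25 to 13.37 in control-fed progeroid, 13.54 to 13.58 in restricted wild-type and 13.37 to 13.50 in control-fed wild-type livers. The 10 Kupffer cell and macrophage markers had list means of 8.06 to 8.86 in restricted progeroid, 7.95 to 8.63 in control-fed progeroid, 7.24 to 7.82 in restricted wild-type and 7.72 to 8.16 in control-fed wild-type livers. In whole liver, fewer cells of a type and less RNA per cell cannot be told apart.

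Of the 29 measured genes, 17 passed the test in at least 1 of the 4 pairwise comparisons, against 38.2% of all genes. The shares of all genes include dim genes, on arrays whose medians lay between 4.17 and 4.21. Of the 29 members only 1 had all group means under 5, and 11 averaged 10 or more in control-fed wild-type livers. Shares among genes of similar level were not computed. In control-fed progeroid against control-fed wild-type livers, 2 members were higher and 4 lower, against 6.7% and 4.32% of all genes. In restricted progeroid against restricted wild-type livers, 3 members were higher and 5 lower, against 11.8% and 5.44% of all genes. In restricted against control-fed progeroid livers, 2 members were higher and 1 lower, against 6.94% and 5.07% of all genes. In restricted against control-fed wild-type livers, 5 members were higher and 7 lower, against 9.92% and 12.6% of all genes. The member shares called lower were 13.8%, 17.2%, 3.45% and 24.1%, and those called higher were 6.9%, 10.3%, 6.9% and 17.2%, in the same order of comparisons. The members' median differences were -0.08, 0.01, 0.03 and -0.03, and the medians of all genes were -0.01, 0.00, -0.01 and -0.03. The groups did not overlap for 5, 6, 2 and 10 members, against 9.35%, 11.9%, 8.97% and 15.7% of all genes. Each comparison shares its groups of arrays with 2 of the others, so their values are not independent of each other. These counts are small and a single animal moved some of them. On the control diet the count of higher members was 1 without progeroid animal 325 or 326 or wild-type animal 401, 402 or 404. In the restricted animals 5 members were higher without progeroid animal 362, and 3 were lower without progeroid animal 368. In progeroid livers 4 members were higher with restriction when control-fed animal 327 was left out.

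**Figure D1:**
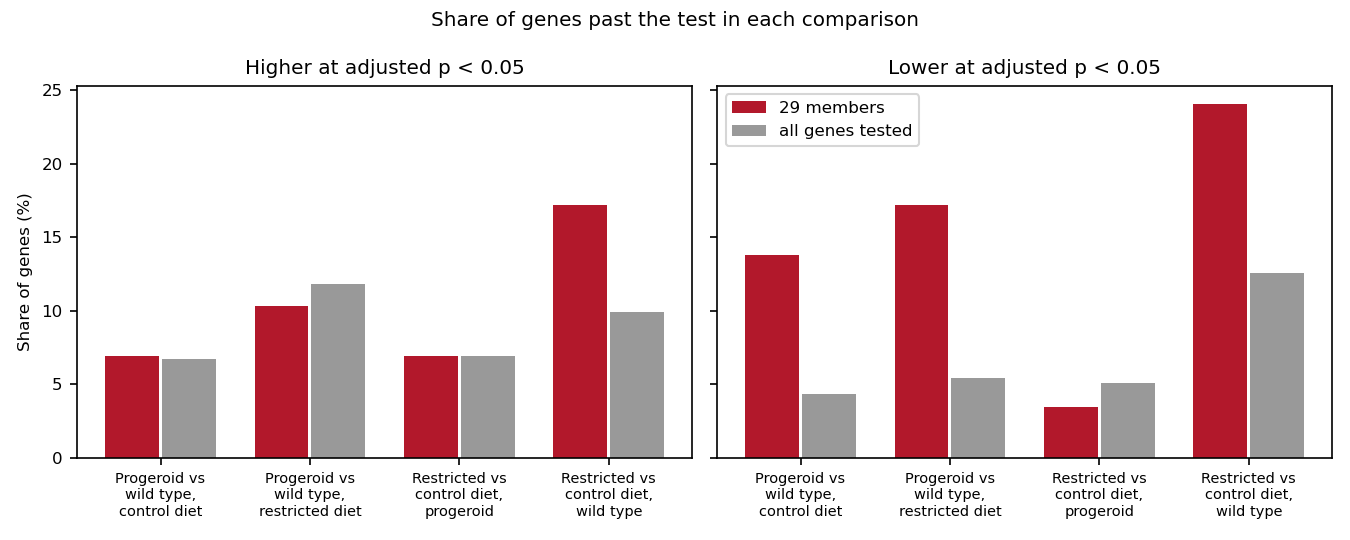
Share of genes called higher or lower in each of the 4 pairwise comparisons, in percent, for the 29 measured autophagy and lysosome genes and for all 17097 genes tested. The members' share called lower is above that of all genes in the genotype comparisons and in wild-type restriction, and is 3.45% in progeroid restriction.

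Progeroid livers differed from wild type on both diets at 4 members: Uvrag, Atg10 and Atg7 were lower and Hexa was higher. Tfeb was lower and Ctsl higher on the control diet, while on the restricted diet Atg5 and Ulk1 were lower and Becn1 and Gabarapl1 higher. The genes that start an autophagosome are taken first, then the conjugation enzymes and ATG8 proteins, then the lysosome.

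Uvrag encodes a partner of Beclin 1 in the lipid kinase complex that acts on late endosomes and autophagosomes. Its levels were 8.06, 8.09, 7.94, 7.99 and 8.21 in control-fed progeroid livers, against 8.90, 8.69, 8.67, 9.02 and 9.00 in control-fed wild-type livers. Every progeroid animal lay below every wild-type animal, and the difference was -0.80 ± 0.093 (SE), or 1.74-fold lower, with a limma adjusted p of 8.79e-06. With restriction the levels were 8.77, 8.53, 8.60, 8.35 and 8.56 in progeroid livers, against 8.97, 8.96, 9.14, 9.28 and 8.87 in wild-type livers. These groups did not overlap either, and the difference was -0.49 ± 0.093 (SE), or 1.40-fold lower, with an adjusted p of 0.000941. Ulk1, a kinase that starts autophagy, was lower by genotype on the restricted diet, averaging 8.97 ± 0.085 in restricted progeroid and 9.33 ± 0.26 in restricted wild-type livers (SD, n = 5 each). The adjusted p was 0.0363, and it was 0.0551 to 0.111 without progeroid animal 362, 366, 368 or 369 or wild-type animal 423 or 424. On the control diet the Ulk1 difference was -0.33 with an adjusted p of 0.0754, and a further Ulk1 probe set was lower there (-0.41, adjusted p = 0.0433 over all probe sets).

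Becn1, which encodes Beclin 1, did not differ by genotype on the control diet (0.02, adjusted p = 0.901). Under restriction its levels were 9.65, 9.86, 9.91, 9.97 and 9.93 in progeroid livers, against 9.66, 9.63, 9.59, 9.54 and 9.60 in wild-type livers. The lowest progeroid animal lay just under the highest wild-type animal, and the difference was 0.26 ± 0.068 (SE), with an adjusted p of 0.0103. Of the other genes that start an autophagosome, Ulk2, the scaffold gene Rb1cc1, the lipid kinase gene Pik3c3 and the phosphoinositide-binding Wipi1 and Wipi2 did not pass in either genotype comparison at their brightest probe sets. Further probe sets of Ulk2 and Wipi2 were lower on the control diet, without overlap (-0.42, adjusted p = 0.0143, and -0.40, adjusted p = 0.0038, over all probe sets). At the brightest probe sets the differences ran from -0.32 for Ulk2 on the control diet to 0.37 for Ulk2 on the restricted diet. All group means of Rb1cc1 were under 5, at 3.01 to 3.16, near the dim end of the arrays, and its values carry little information.

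Atg7 encodes the activating enzyme at the head of both conjugation pathways, and Atg10 the enzyme that joins ATG12 to ATG5. Atg10 levels were 6.57, 6.38, 6.45, 6.56 and 6.48 in control-fed progeroid livers, against 7.15, 7.36, 7.15, 7.25 and 7.17 in control-fed wild-type livers. Under restriction they were 6.54, 6.23, 6.57, 6.16 and 6.29 in progeroid livers, against 7.64, 7.54, 7.26, 7.12 and 7.33 in wild-type livers. The genotypes were apart in every animal on both diets. Atg10 was 1.65-fold lower on the control diet (-0.73 ± 0.094 SE, limma adjusted p = 2.96e-05) and 2.03-fold lower on the restricted diet (-1.02 ± 0.094 SE, adjusted p = 4.05e-07). Its test of whether the genotype difference varied with diet gave an adjusted p of 0.314.

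Atg7 levels were 6.45, 6.63, 6.82, 6.63 and 6.39 in control-fed progeroid livers, against 7.08, 7.25, 7.43, 6.98 and 7.31 in control-fed wild-type livers. Under restriction they were 6.37, 6.64, 6.35, 6.56 and 6.15 in progeroid livers, against 6.82, 6.84, 7.01, 6.92 and 6.91 in wild-type livers. Again no progeroid animal reached the lowest wild-type animal of its diet. Atg7 was 1.54-fold lower on the control diet (-0.63 ± 0.099 SE, adjusted p = 0.000236) and 1.40-fold lower on the restricted diet (-0.48 ± 0.099 SE, adjusted p = 0.00173). The other 2 Atg7 probe sets that were not dim were also lower by genotype on the control diet, by 0.41 and 0.38, with adjusted p of 0.0139 and 0.0262 over all probe sets. On the restricted diet 1 of these passed (-0.48, adjusted p = 0.00357) and the other did not (-0.22, adjusted p = 0.176). The plot of probe sets shows all 3 by animal.

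**Figure D2:**
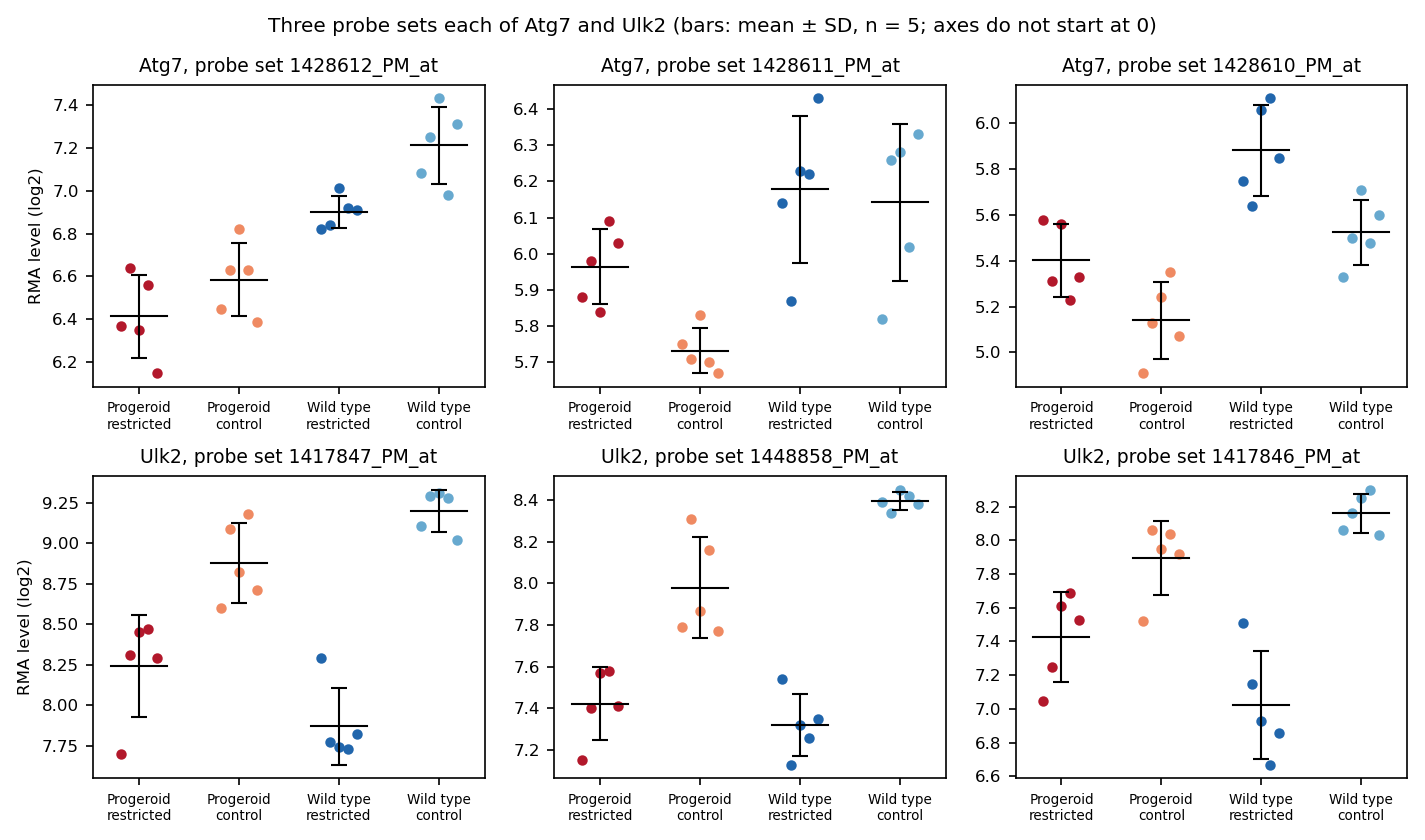
Level (log2) of 3 probe sets of Atg7, the activating enzyme, and 3 of Ulk2, an initiating kinase, in each animal, with group means and SDs as lines and bars. For Atg7 all 3 are lower in progeroid livers on the control diet. Their differences between diets in wild type are unlike (-0.31, 0.04 and 0.36 in the order of the panels). All 3 of Ulk2 are lower with restriction in both genotypes.

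Atg5, which joins ATG12 and ATG16L1 in the complex that places ATG8 proteins on the membrane, averaged 9.32 ± 0.11 in restricted progeroid livers and 9.63 ± 0.14 in restricted wild-type livers (SD, n = 5 each). It was lower by genotype on that diet (-0.31 ± 0.087 SE, limma adjusted p = 0.0186), and did not pass without progeroid animal 368 or wild-type animal 425 (adjusted p = 0.0611 to 0.0636). On the control diet the Atg5 difference was -0.07. Further Atg5 probe sets differed by -0.09 and -0.20 on the restricted diet and did not pass (adjusted p = 0.614 and 0.105 over all probe sets). Gabarapl1 encodes an ATG8 protein. Its levels were 11.58, 11.95, 12.15, 12.09 and 11.87 in restricted progeroid livers, against 11.79, 11.45, 11.42, 11.11 and 11.34 in restricted wild-type livers. The groups overlapped through progeroid animal 362, the lowest of its group, and wild-type animal 421, the highest of its group. The difference was 0.50 ± 0.17 (SE), with an adjusted p of 0.0409, and it was 0.0614 to 0.114 without any of progeroid animals 365, 366, 368 and 369 or wild-type animals 422, 423, 424 and 425. Atg3, Atg4b, Atg12, Atg16l1, Gabarap and Map1lc3a did not pass in either genotype comparison at their brightest probe sets, with differences of -0.21 to 0.09. The mitophagy receptor gene Bnip3 did not pass either, at -0.31 on the control diet and -0.06 on the restricted diet.

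Hexa, which encodes the alpha subunit of the lysosomal enzyme beta-hexosaminidase A, had the smallest adjusted p among the lysosomal members on both diets. Its levels were 9.10, 9.48, 9.68, 9.65 and 9.29 in control-fed progeroid livers, against 8.78, 8.40, 8.84, 8.63 and 8.70 in control-fed wild-type livers. On the restricted diet they were 9.01, 9.25, 9.59, 9.46 and 9.20 in progeroid livers, against 8.66, 8.31, 8.31, 8.26 and 8.39 in wild-type livers. Neither pair of groups overlapped. Hexa was 1.71-fold higher on the control diet (0.77 ± 0.12 SE, limma adjusted p = 0.000227) and 1.89-fold higher on the restricted diet (0.92 ± 0.12 SE, adjusted p = 2.8e-05). It was measured by a single probe set. The Kupffer cell and macrophage markers differed in the same direction. By genotype 2 of 10 were higher on the control diet, Clec4f and Vsig4, and 8 of 10 on the restricted diet, these 2 included. Their mean was higher by 0.39 on the control diet (two-sided exact permutation p = 0.0476, adjusted p = 0.102) and by 0.74 on the restricted diet (exact permutation p = 0.00794, the smallest the design allows, adjusted p = 0.0363). Stellate cell markers were also higher in progeroid livers, 4 of 8 on each diet, while 0 of 4 cholangiocyte and 0 of 5 B and T cell markers passed. Of 5 neutrophil markers 2 were higher on each diet, S100a8 and S100a9. The others, Camp, Ngp and Ltf, were dim and did not pass. On the restricted diet they averaged 3.57, 3.42 and 3.68 in progeroid livers, against 3.66, 3.61 and 3.69 in wild-type livers. Of 6 sinusoidal endothelial markers 1 was lower by genotype on the control diet, Oit3, and 1 higher on the restricted diet, Pecam1. The hepatocyte marker mean differed by -0.13 on the control diet (exact permutation p = 0.00794, adjusted p = 0.0363) and by -0.06 on the restricted diet (exact permutation p = 0.0159, adjusted p = 0.0508). Of the 8 hepatocyte markers 1 was called lower on each diet and 0 higher, and their median differences were -0.01 and 0. Tat averaged 11.56 in control-fed progeroid and 12.47 in control-fed wild-type livers, while Alb averaged 14.29 and 14.27. The part of these markers in the Hexa result was not tested.

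Ctsl encodes the protease cathepsin L. Its levels were 12.98, 12.99, 13.03, 13.05 and 12.88 in control-fed progeroid livers, against 12.64, 12.69, 12.77, 12.55 and 12.88 in control-fed wild-type livers. The groups touched at 12.88, and the difference was 0.28 ± 0.078 (SE), with a limma adjusted p of 0.0261. It was 0.0521 to 0.0771 without progeroid animal 325 or 326 or wild-type animal 401, 402 or 404, and on the restricted diet the difference was -0.02. Tfeb, the transcription factor of lysosomal genes, averaged 4.78 ± 0.10 in control-fed progeroid livers and 5.01 ± 0.055 in control-fed wild-type livers (SD, n = 5 each), a dim level. Its adjusted p was 0.0372, and 0.0522 to 0.09 without progeroid animal 321, 323, 326 or 327 or wild-type animal 402, 403, 404 or 405. On the restricted diet Tfeb differed by -0.20, with an adjusted p of 0.0548. The other cathepsin genes Ctsa, Ctsb and Ctsd, the membrane proteins Lamp1 and Lamp2, the acid lipase gene Lipa and the calcium channel gene Mcoln1 did not pass in either genotype comparison, with differences of -0.24 to 0.23.

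**Figure D3:**
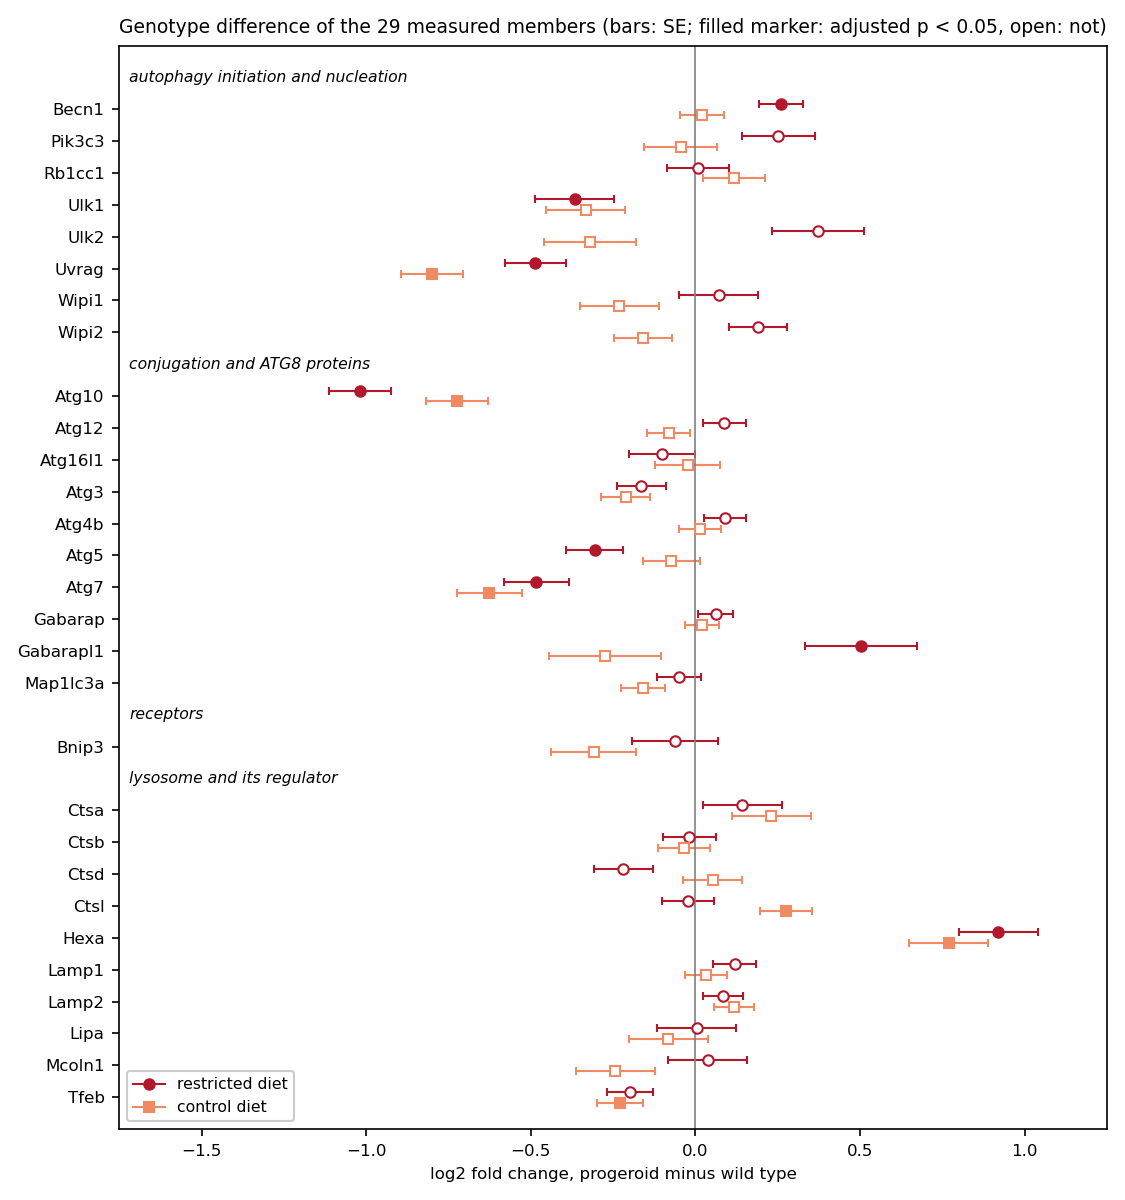
Progeroid minus wild-type difference (log2) for each of the 29 measured genes, with its standard error, on the restricted and control diets; a filled marker has an adjusted p under 0.05. Uvrag, Atg10 and Atg7 lie left of 0 and Hexa right of 0 on both diets.

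Restriction changed 3 of the 29 members in progeroid livers, with 2 higher and 1 lower, against 6.94% and 5.07% of all genes. In wild-type livers it changed 12 members, with 5 higher and 7 lower, against 9.92% and 12.6% of all genes. Ulk2 fell and Bnip3 rose in both genotypes, and Uvrag rose in progeroid livers. In wild type the genes that start an autophagosome counted 0 higher and 3 lower, Ulk2, Becn1 and Wipi2. Conjugation and lysosomal genes went both ways there at their brightest probe sets. Atg5 and Atg16l1 rose while Atg7, Atg12 and Gabarapl1 fell, and Ctsl and Ctsd rose while Lamp1 fell. For Atg7 another probe set was called higher, so these values set no direction for that gene.

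Ulk2 encodes the second kinase of the ULK family. Its levels were 7.70, 8.31, 8.45, 8.47 and 8.29 in restricted progeroid livers, against 8.60, 9.09, 8.82, 9.18 and 8.71 in control-fed progeroid livers. In wild type they were 8.29, 7.77, 7.74, 7.73 and 7.82 with restriction, against 9.11, 9.29, 9.31, 9.28 and 9.02 on the control diet. Every restricted animal lay below every control-fed animal of its genotype. Ulk2 was 1.55-fold lower with restriction in progeroid livers (-0.64 ± 0.14 SE, limma adjusted p = 0.00565) and 2.51-fold lower in wild type (-1.33 ± 0.14 SE, adjusted p = 1.3e-06). The other 2 Ulk2 probe sets that were not dim fell too, by 0.48 and 0.56 in progeroid livers and by 1.14 and 1.08 in wild type, and the largest of their adjusted p over all probe sets was 0.042. A further Ulk2 probe set, dim at a mean of 3.68, differed by 0.01 in progeroid livers and -0.05 in wild type.

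Bnip3, a receptor on the outer mitochondrial membrane that binds ATG8 proteins, had levels of 12.44, 12.36, 12.30, 11.96 and 12.29 in restricted progeroid livers, against 11.16, 11.36, 11.65, 11.64 and 12.01 in control-fed progeroid livers. In wild type they were 12.44, 12.39, 12.35, 12.22 and 12.26 with restriction, against 12.04, 12.00, 11.69, 11.98 and 11.66 on the control diet. The wild-type groups were apart, and the progeroid groups overlapped between restricted animal 368 and control-fed animal 327. Bnip3 was 1.63-fold higher with restriction in progeroid livers (0.71 ± 0.13 SE, limma adjusted p = 0.000928) and 1.37-fold higher in wild type (0.46 ± 0.13 SE, adjusted p = 0.0113). The test of whether these diet effects differed gave an adjusted p of 0.57. Uvrag, given by animal above, was 1.42-fold higher in restricted than in control-fed progeroid livers (0.50 ± 0.093 SE, adjusted p = 0.00132), with no overlap. In wild type the Uvrag difference was 0.19, with an adjusted p of 0.159, and the difference between the diet effects was 0.31, with an adjusted p of 0.27.

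**Figure D4:**
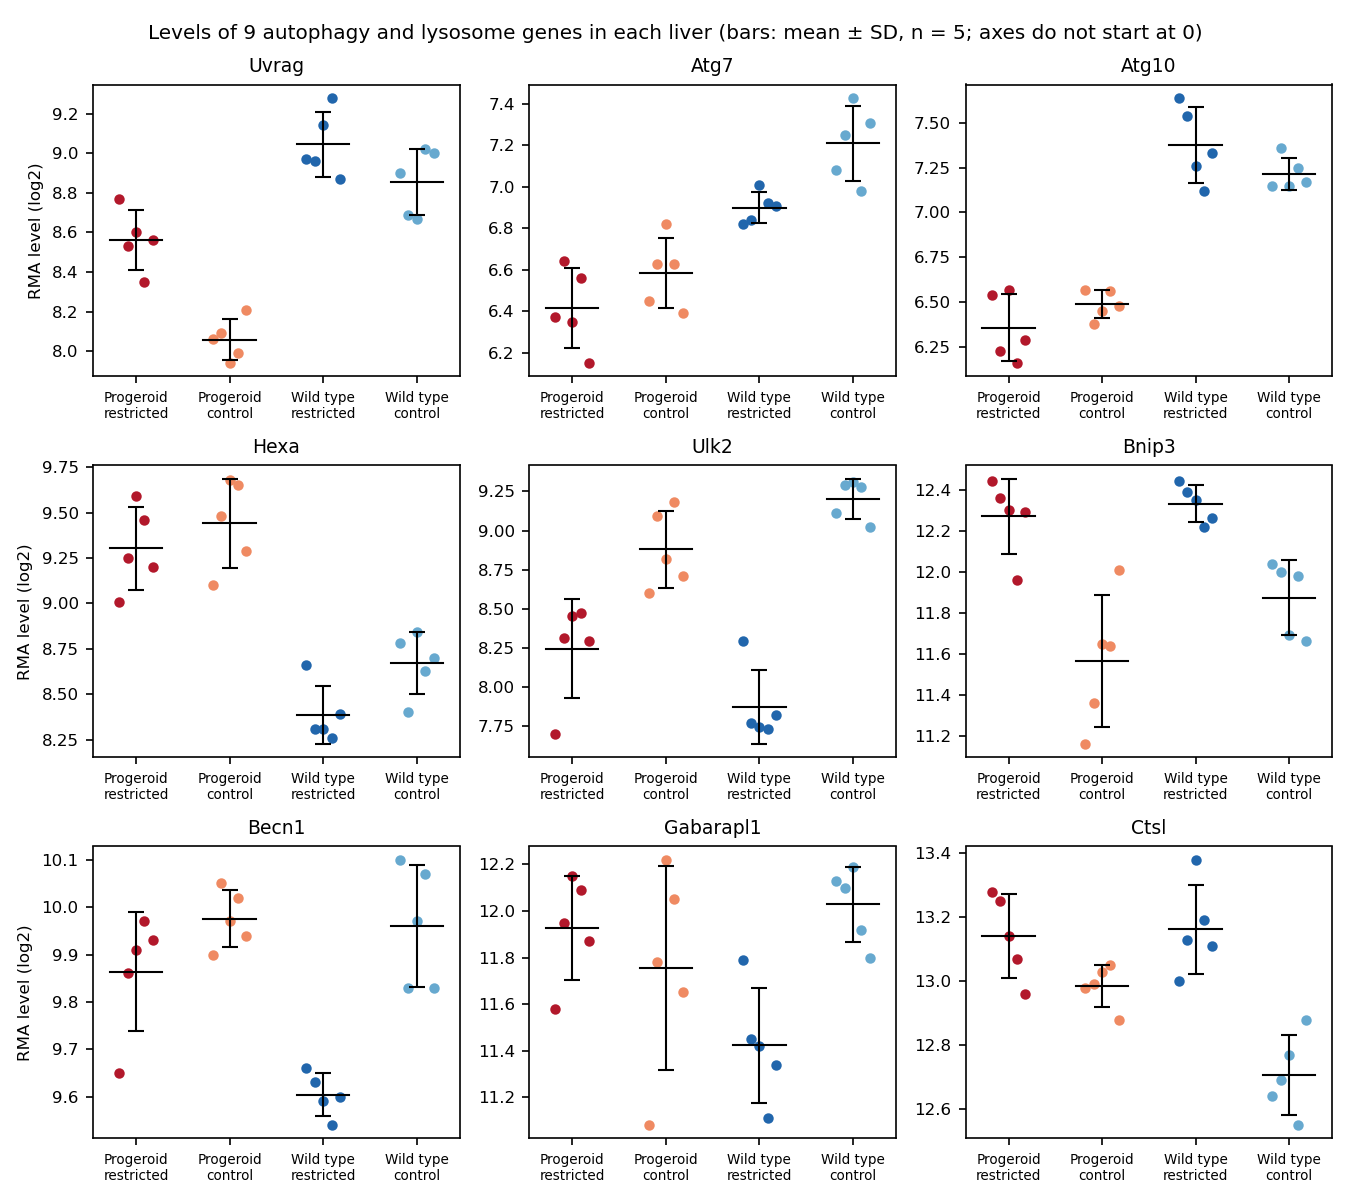
Level (log2) of Uvrag, Atg7, Atg10, Hexa, Ulk2, Bnip3, Becn1, Gabarapl1 and Ctsl in each of the 20 animals, with group means and SDs as lines and bars; each panel has its own axis. Genotype separates Uvrag, Atg7, Atg10 and Hexa on both diets, and restriction separates Ulk2 in both genotypes.

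Among the genes that start an autophagosome, Becn1 and Wipi2 also fell with restriction in wild type. Becn1 levels, given above for restricted wild-type livers, were 10.10, 9.83, 9.97, 10.07 and 9.83 in control-fed wild-type livers. The Becn1 difference with restriction was -0.12 in progeroid livers (limma adjusted p = 0.312). In wild type it was -0.36 ± 0.068 (SE), or 1.28-fold lower, without overlap and with an adjusted p of 0.000697. Wipi2 levels were 8.60, 8.51, 8.25, 8.25 and 8.42 in restricted wild-type livers, against 8.69, 8.73, 8.74, 8.72 and 8.74 in control-fed wild-type livers. The groups were apart by less than the spread of the restricted animals, and Wipi2 was 1.24-fold lower (-0.32 ± 0.087 SE, adjusted p = 0.0119).

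Of the conjugation genes, Atg5 levels were 9.53, 9.65, 9.45, 9.68 and 9.81 in restricted wild-type livers, against 9.22, 9.40, 9.29, 9.14 and 9.25 in control-fed wild-type livers. The groups were apart, and Atg5 was 1.29-fold higher (0.37 ± 0.087 SE, limma adjusted p = 0.00443). A further Atg5 probe set rose by 0.35 (adjusted p = 0.00341 over all probe sets). Another, of similar level with a mean of 9.19, differed by 0.04 and did not pass (adjusted p = 0.818). For Atg16l1, the partner of Atg5, the difference was 0.30 in progeroid livers (adjusted p = 0.0587). Atg16l1 was 1.30-fold higher in wild type (0.38 ± 0.10 SE, adjusted p = 0.0102). Atg12, the ubiquitin-like protein joined to ATG5, was 1.19-fold lower in wild type at its brightest probe set (adjusted p = 0.0081). Further Atg12 probe sets differed there by -0.09 and, at a dim one, by -0.03. They did not pass (adjusted p = 0.607 and 0.899 over all probe sets). Atg7 was lower as well (-0.31 ± 0.099 SE, adjusted p = 0.0282), but its groups overlapped and its other probe sets differed, as given below. It was 0.0556 to 0.0836 without control-fed animal 402, 403 or 405 or restricted animal 421 or 422. Gabarapl1 averaged 11.42 ± 0.24 in restricted wild-type livers and 12.03 ± 0.16 in control-fed wild-type livers (SD, n = 5 each), without overlap. Its difference was 0.17 in progeroid livers (adjusted p = 0.567), and it was 1.52-fold lower in wild type (-0.61 ± 0.17 SE, adjusted p = 0.0116).

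Among the lysosomal members, Ctsl levels were 13.00, 13.13, 13.38, 13.19 and 13.11 in restricted wild-type livers, against the control-fed wild-type levels given above, all of which were lower. The Ctsl difference was 0.16 in progeroid livers (limma adjusted p = 0.22), and Ctsl was 1.37-fold higher in wild type (0.45 ± 0.078 SE, adjusted p = 0.000267). Ctsd, which encodes cathepsin D, had levels of 10.84, 10.55, 10.88, 10.71 and 10.74 in restricted wild-type livers, against 10.39, 10.45, 10.48, 10.03 and 10.57 in control-fed wild-type livers. The groups overlapped by 1 animal each, and Ctsd was 1.29-fold higher (0.36 ± 0.089 SE, adjusted p = 0.00548). Lamp1, an abundant glycoprotein of the lysosomal membrane, averaged 12.12 ± 0.071 with restriction and 12.31 ± 0.047 on the control diet (SD, n = 5 each). It was 1.14-fold lower (adjusted p = 0.0361), and 0.0555 to 0.0947 without control-fed animal 401, 402, 403 or 404 or restricted animal 422, 423 or 425. In these wild-type livers the mean of the Kupffer cell and macrophage markers was lower with restriction by 0.36 (two-sided exact permutation p = 0.0238, adjusted p = 0.0635), and 3 of the 10 fell. Of the 10, 1 went the other way, Marco, which averaged 5.24 with restriction and 4.39 on the control diet. In progeroid livers the list mean differed by -0.01 (exact permutation p = 0.992), with 1 of the 10 called higher and 0 lower. Marco averaged 6.44 with restriction and 5.29 on the control diet there. The hepatocyte marker mean was higher with restriction by 0.18 in progeroid livers and 0.11 in wild type (each with the smallest exact permutation p the design allows, 0.00794, and an adjusted p of 0.0363). Of the 8 hepatocyte markers 2 were called higher and 0 lower in each genotype. Their median differences were 0.09 in progeroid livers and 0.04 in wild type. In progeroid livers Tat averaged 12.16 with restriction and 11.56 on the control diet, and Ass1 12.04 and 11.49, while Alb averaged 14.39 and 14.29. In wild type Ass1 averaged 12.27 and 11.70, and Alb 14.34 and 14.27. The part of either marker list in these results was not tested.

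**Figure D5:**
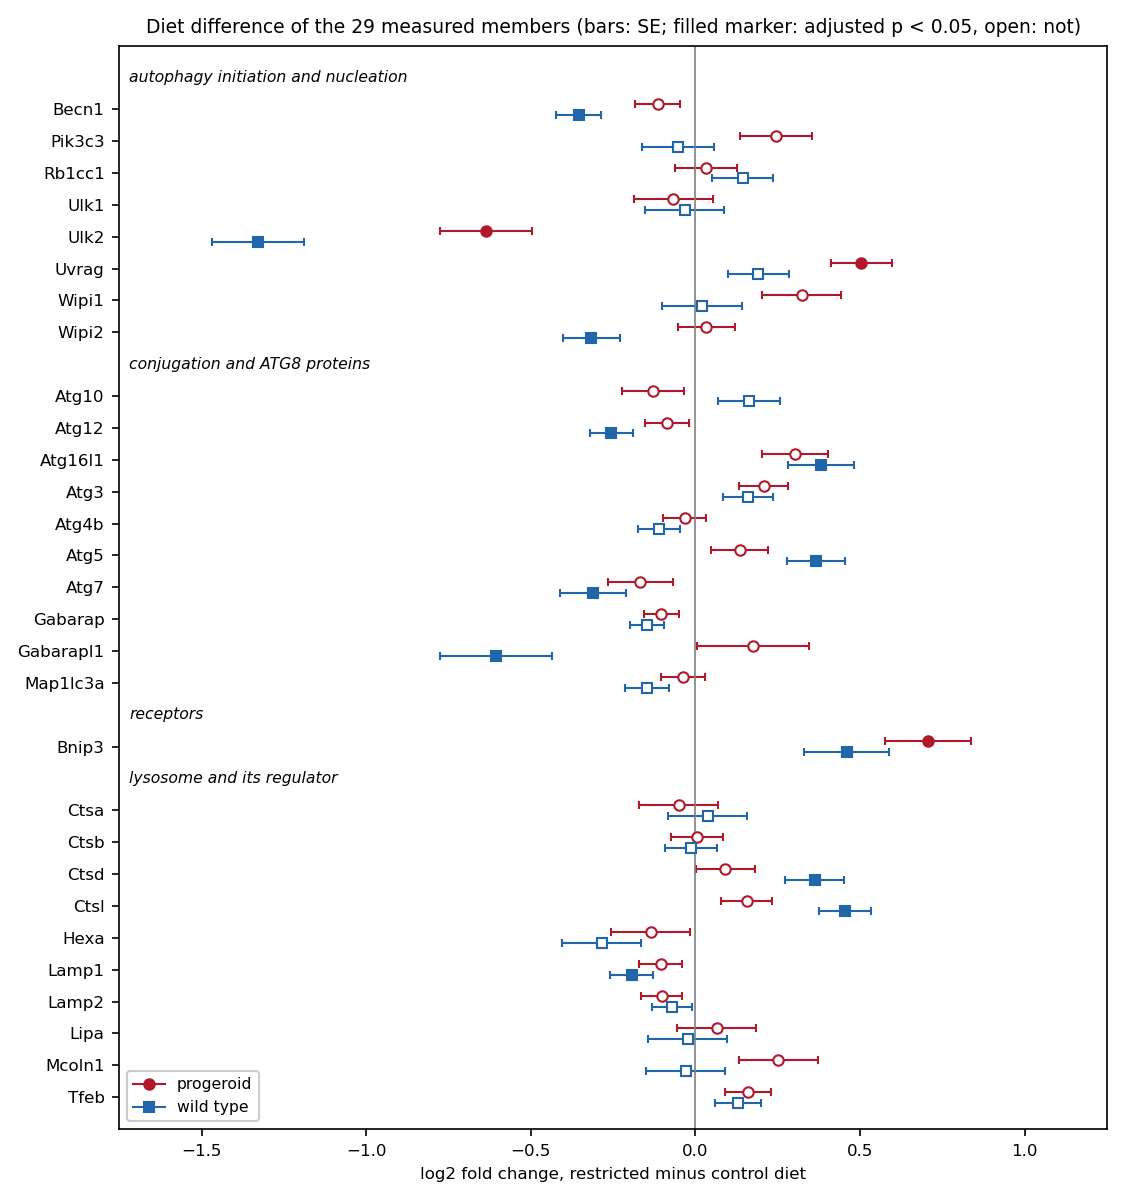
Restricted minus control-diet difference (log2) for each of the 29 measured genes, with its standard error, in progeroid and wild-type livers; a filled marker has an adjusted p under 0.05. Ulk2 lies left of 0 and Bnip3 right of 0 in both genotypes.

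The difference between the diet effects of the genotypes was tested directly, since passing in wild type and not in progeroid livers does not show that the effects differ. None of the 29 members passed this limma test in either direction, against 1.03% of all genes higher and 0.374% lower, while 8 members had an unadjusted p under 0.05, against 14.2% of all genes. The smallest adjusted p were those of Ulk2, with a difference of 0.69 ± 0.20 (SE) and an adjusted p of 0.0924, and Gabarapl1, with 0.78 ± 0.24 (SE) and 0.11. For Wipi2, Ctsl and Becn1 the differences were 0.35, -0.30 and 0.24, with adjusted p of 0.182, 0.207 and 0.247. For Ulk2 the result rested on restricted progeroid animal 362, the lowest of its group at 7.70, and restricted wild-type animal 421, the highest of its group at 8.29. Without either of them the Ulk2 adjusted p was 0.0153 to 0.0241, and without animal 421 that of Gabarapl1 was 0.0477. So 1 member passed without animal 362 and 2 without animal 421.

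The probe sets of a gene did not always move together. Over the 64 probe sets, 2 were higher and 9 lower by genotype on the control diet, against 3.98% and 2.96% of all probe sets, and 5 were higher and 6 lower on the restricted diet, against 7.07% and 4.42%. With restriction 5 were higher and 3 lower in progeroid livers, against 4.81% and 3.44%, and 10 were higher and 15 lower in wild type, against 9.88% and 9.09%. Atg7 held a pair with opposite calls in wild-type restriction: the probe set used above fell by 0.31 (limma adjusted p = 0.0324 over all probe sets) while another rose by 0.36 (adjusted p = 0.0187). Wipi2 did too: 2 probe sets fell, by 0.60 and 0.32, and a dim one with a mean of 4.10 rose by 0.30 (adjusted p = 0.00815). The second Wipi2 probe set averaged 7.40 ± 0.071 in restricted progeroid, 7.45 ± 0.15 in control-fed progeroid, 7.25 ± 0.10 in restricted wild-type and 7.85 ± 0.17 in control-fed wild-type livers (SD, n = 5 each). It was the 1 probe set of the 64 whose diet effects differed between genotypes (0.55 ± 0.12 SE, adjusted p = 0.0303), against 0.506% of all probe sets higher and 0.271% lower. Mcoln1, the lysosomal calcium channel gene, showed no call at its brightest probe set, but another rose with restriction by 0.85 in progeroid livers (adjusted p = 0.00956) and by 0.68 in wild type (adjusted p = 0.02). This Mcoln1 probe set averaged 6.29 ± 0.20 in restricted progeroid livers and 5.44 ± 0.52 in control-fed progeroid livers (SD, n = 5 each). In all, a further probe set passed where the brightest did not in 14 cases, at 11 genes, and those of Wipi2, Ulk1, Ulk2 and Mcoln1 are given above. By genotype on the control diet Map1lc3a was another (-0.25, adjusted p = 0.0137). By genotype on the restricted diet they were Gabarapl1 (0.68, adjusted p = 0.028), whose brightest reached 0.0546 over all probe sets, and a dim probe set of Atg12 (0.37, adjusted p = 0.0246). In progeroid restriction they included Wipi1 (0.87, adjusted p = 0.0185) and the dim Atg12 probe set (0.43, adjusted p = 0.0132). In wild-type restriction they included Atg4b (-0.56, adjusted p = 0.00066), Ctsb (0.50, adjusted p = 0.000707) and a dim probe set of Atg3 (-0.65, adjusted p = 0.00208), which went against its brightest (0.16). What the probe sets of a gene match in its transcripts was not analysed here.

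The 12 members whose brightest probe set passed in no pairwise comparison were Atg3, Atg4b, Ctsa, Ctsb, Gabarap, Lamp2, Lipa, Map1lc3a, Mcoln1, Pik3c3, Rb1cc1 and Wipi1. Their differences ran from -0.24 for Mcoln1 to 0.32 for Wipi1, and the smallest adjusted p was 0.0515, for Gabarap in wild-type restriction. Ctsb, which encodes cathepsin B, averaged 11.57 ± 0.062, 11.57 ± 0.20, 11.59 ± 0.11 and 11.60 ± 0.066 in restricted progeroid, control-fed progeroid, restricted wild-type and control-fed wild-type livers (SD, n = 5 each). Its 4 differences at this probe set lay between -0.04 and 0.00. Within groups, the median SD over the 29 members was 0.13 in restricted progeroid, 0.15 in control-fed progeroid, 0.13 in restricted wild-type and 0.12 in control-fed wild-type livers. Control-fed progeroid animal 321 was the lowest of its group for 13 of the 29 members and had a member mean of 9.02, against 9.17 to 9.29 in the other 4. Control-fed progeroid animal 325 was the highest of its group for 16 members, and control-fed wild-type animal 404 was the lowest of its group for 13. The 3′ minus 5′ difference of the Gapdh probe sets, a measure of RNA quality, was 0.81 ± 0.24 in restricted progeroid, 0.93 ± 0.28 in control-fed progeroid, 0.76 ± 0.12 in restricted wild-type and 0.66 ± 0.06 in control-fed wild-type livers (SD, n = 5 each). By genotype on the control diet this measure differed by 0.28 (two-sided exact permutation p = 0.0476, adjusted p = 0.102). It was highest in control-fed progeroid animal 327, at 1.38. Without animal 327, Atg3 and Bnip3 passed as lower by genotype on the control diet (limma adjusted p = 0.037 and 0.0217). Atg3 and Atg16l1 then passed as higher with restriction in progeroid livers. The part of RNA quality in the genotype and diet results was not tested.

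Beyond the 31 genes, 5 further lists of the same pathway held 118 measured genes. In control-fed progeroid against wild-type livers 8 of them were higher and 13 lower (6.78% and 11.0%), and on the restricted diet 17 were higher and 8 lower (14.4% and 6.78%). With restriction 12 were higher and 7 lower in progeroid livers (10.2% and 5.93%), and 14 higher and 22 lower in wild type (11.9% and 18.6%). These shares stand against the shares of all genes given above for the same comparisons.

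The 34 other lysosomal hydrolases counted 5 higher and 4 lower by genotype on the control diet, and 8 higher and 3 lower on the restricted diet. Dnase2a, which encodes the lysosomal DNase II, was lower on the control diet (-1.41, limma adjusted p = 0.000168). Gm2a, the activator protein with which beta-hexosaminidase A works, was lower on both diets (-0.54, adjusted p = 0.000387, and -0.60, adjusted p = 0.000101), while Hexa was higher. Arsa, which encodes arylsulfatase A, averaged 8.04 ± 0.28 in restricted progeroid, 8.11 ± 0.21 in control-fed progeroid, 7.08 ± 0.24 in restricted wild-type and 8.81 ± 0.069 in control-fed wild-type livers (SD, n = 5 each). Arsa fell with restriction in wild type (-1.73, adjusted p = 1.28e-08) and was higher by genotype on the restricted diet (0.96, adjusted p = 3.18e-05). It was the 1 gene of the 118 whose diet effects differed between genotypes (1.65, adjusted p = 7.67e-05). With restriction 0 hydrolases rose and 2 fell in progeroid livers, namely the acid phosphatase gene Acp2 (-0.59, adjusted p = 0.000283) and Gla, for alpha-galactosidase A (-0.35, adjusted p = 0.0249). In wild type 2 rose and 6 fell, among them Dnase2a (adjusted p = 0.00107).

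Of 24 other genes of the autophagy machinery, 0 were higher and 1 lower by genotype on the control diet, namely the lipid transfer protein gene Atg2b (-0.28, limma adjusted p = 0.0343). Under restriction 2 were higher and 1 lower by genotype, led by the fusion protein gene Snap29 (0.62, adjusted p = 0.00211) and by Atg101, of the ULK complex (0.37, adjusted p = 0.0303). With restriction 2 rose and 2 fell in progeroid livers, and Atg2b (0.49, adjusted p = 0.000675) and the fusion protein gene Stx17 (0.47, adjusted p = 0.00159) were the 2 that rose. In wild type 3 rose and 4 fell, led by falls of Atg101 (-0.80, adjusted p = 3.81e-05) and of the ATG8 gene Gabarapl2 (-0.63, adjusted p = 7.01e-05).

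Of 11 other receptors, 0 were higher and 2 lower by genotype on the control diet, the mitophagy receptor gene Bcl2l13 (-0.33, limma adjusted p = 0.0355) and Wdfy3, a scaffold for protein aggregates (adjusted p = 0.0468). Under restriction 2 were higher and 0 lower by genotype, the receptor genes Nbr1 (0.35, adjusted p = 0.00443) and Bnip3l (0.21, adjusted p = 0.0144). With restriction 4 rose and 0 fell in progeroid livers, led by the mitophagy genes Pink1 (0.33, adjusted p = 0.000722) and Phb2 (0.33, adjusted p = 0.00115). In wild type 3 rose and 2 fell, led by rises of the endoplasmic reticulum receptor gene Retreg1 (1.04, adjusted p = 7.01e-05) and Phb2 (0.35, adjusted p = 0.000231). Of all genes, 6.94% rose and 5.07% fell with restriction in progeroid livers, and 9.92% rose and 12.6% fell in wild type. Whether the receptors changed together, or with Bnip3, was not tested.

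Of 27 other genes of the lysosomal membrane and proton pump, 2 were higher and 3 lower by genotype on the control diet, and 2 were higher and 0 lower on the restricted diet. On the control diet the pump subunit gene Atp6v0e was higher (0.32, limma adjusted p = 0.00295) and the membrane receptor gene Scarb2 lower (-0.36, adjusted p = 0.00462). On the restricted diet Laptm4b (0.38, adjusted p = 0.0156) and the pump subunit gene Atp6v1d (0.26, adjusted p = 0.0343) were higher. Restriction gave 3 rises and 2 falls in progeroid livers, led by a fall of Atp6ap1, an accessory subunit of the pump (-0.31, adjusted p = 0.00281), and a rise of the cholesterol exporter gene Npc1 (0.58, adjusted p = 0.00416). In wild type 3 rose and 6 fell, led by falls of Mfsd8 (adjusted p = 5.19e-05) and of the pump subunit gene Atp6v1f (-0.39, adjusted p = 0.00017).

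Of 22 regulators, 1 was higher and 3 lower by genotype on the control diet, and 3 were higher and 4 lower on the restricted diet. Rptor, a subunit of the growth kinase complex mTORC1, was lower in control-fed progeroid livers (limma adjusted p = 0.000239). Sesn3, a sestrin that restrains that complex, was higher by genotype on both diets (0.65, adjusted p = 0.00451, and 0.80, adjusted p = 0.000526) and fell with restriction in wild type (-0.73, adjusted p = 0.00082). Prkaa2, a catalytic subunit of the energy sensor AMPK, was lower in restricted progeroid than in restricted wild-type livers (-0.36, adjusted p = 0.00183). With restriction 3 regulators rose and 1 fell in progeroid livers, and 3 rose and 4 fell in wild type. Rragc, a Rag GTPase that brings mTORC1 to the lysosome, rose in both genotypes (0.35, adjusted p = 0.000631 in progeroid livers, and 0.37, adjusted p = 0.000157 in wild type). Fnip1, a folliculin partner, rose in progeroid livers (0.56, adjusted p = 0.00281).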

How the data were processed

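Liver RNA of 20 mice was measured on Affymetrix arrays, with 5 separate animals in each of 4 groups taken from the labels. The deposited table holds log2 expression values on which the authors ran RMA, as the submitters' processing notes say; the sources used here name no version or setting. Nothing was normalized again, and arrays carry no read depth, so the number of animals limits the precision. Symbols came from the platform annotation: of 45141 probe sets, 104 were controls, 28898 had 1 symbol, 551 several and 15588 none. The brightest probe set of a gene stood for it, leaving 17097 genes. limma 3.58.1 in R 4.3.3 (lmFit, eBayes) fitted all 20 arrays with 1 mean per group, and the Benjamini-Hochberg method adjusted p-values over all genes, or over the 45037 probe sets, at a threshold of 0.05. Marker lists were compared by exact permutation tests, of which 32 were made and adjusted together. On simulated data for 17097 genes, the control-diet genotype comparison found 38% of genes raised or lowered 1.25-fold, 88% at 1.5-fold and 100% at 2-fold, beside 7 false calls. The wild-type restriction comparison found 44%, 82% and 94% at the same folds, beside 13 false calls. The simulation changed far fewer genes than these comparisons called, with noise independent between genes. Its rates therefore need not hold for the data. The alternatives were equal array medians, a filter on dim genes, means of probe sets, no probe sets with a suffix for shared sequence, a robust variance trend, fits of 2 groups alone, and leaving out each animal. Every listed gene is named, as are, of each further list, the 2 smallest adjusted p that passed in a comparison. The genes, lists and tests were chosen with earlier results of these data known.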

Additional observations from a re-analysis of the deposited data

Results flagged for a closer look

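In 116 checks of a member within a group of 5 animals, 5 had an animal far from the others, and chance alone gives about 1 in 20. In restricted progeroid livers, animal 362 had the highest Ctsd level, 10.73, against 10.50 for the next, and the lowest Ulk2 level, 7.70, against 8.29. In the same group, animal 368 had the lowest Atg5 level, 9.12, against 9.33 for the next, and the highest Ctsb level, 11.68, against 11.56. In restricted wild-type livers, animal 421 had the highest Ulk2 level, 8.29, against 7.82 for the next. By a limma test of the difference itself, the diet effects of the genotypes differed at 1 Wipi2 probe set, by 0.55 (adjusted p = 0.0303).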

How the results depend on the processing

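Of 29 calls of a member in a comparison, 20 kept their direction and an adjusted p under 0.05 in every alternative that tested the gene and 9 lost it in at least 1. The mean of a gene's probe sets turned the fall of Atg7 in wild-type restriction to 0.014 (adjusted p = 0.916), and ended the calls of Atg12 in wild-type restriction (0.18), Atg5 (0.0767) and Ulk1 (0.0945) by genotype on the restricted diet and Ctsl by genotype on the control diet (0.0809). Without probe sets that have a suffix, Mcoln1 passed in wild-type restriction at 0.68 (adjusted p = 0.0181), against an uncalled -0.03, and Ctsl missed the threshold there (0.151) and by genotype on the control diet (0.283). With the robust trend, Gabarapl1 on the restricted diet (0.0551) and Tfeb on the control diet (0.0877) missed it. Hexa, Ctsd, Atg12, Lamp1 and Pik3c3 have only probe sets with a suffix, so the fit without these did not test them. On the control diet, 1 member was higher and 7 lower by genotype with the mean of probe sets. There, 0 of the 24 members tested without suffix probe sets were higher, and Hexa was not among the 24. Leaving out each animal in turn gave 1 to 3 higher and 3 to 5 lower in that comparison, 2 to 5 and 3 to 7 on the restricted diet, 2 to 4 and 1 with restriction in progeroid livers, 5 and 5 to 8 in wild type, and 0 to 2 and 0 for the difference of diet effects. Of 116 uncalled results, 20 passed in some alternative, 19 of them in the same direction and Mcoln1 in the opposite one. No paired analysis was possible because the 4 groups share no animal numbers. Dim probe sets and 5 animals per group limit what small differences can be called.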
